A study of Mus musculus with 12 samples.

Results

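The genes described here encode the machinery that fuses hormone granules with the plasma membrane: SNARE proteins, their Sec1/Munc18 partners, calcium sensors, complexins, priming and active zone factors, Rab GTPases with their effectors, SNARE disassembly factors and synaptic vesicle proteins. They were taken by name from a list of 40 genes, of which 39 were found by that name among 24078 transcripts of a mouse islet RNA table. Rims1 was listed only as 2 entries marked as duplicate copies, with WT means of 0.22 and 0.33 RPKM, and was left out. RPKM are reads scaled to transcript length and to the number of mapped reads, so levels of different genes can be compared within an animal. Reads shared between near-identical copies of a gene cannot be divided in this table.

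Islet RNA of 12 male mice was sequenced, 4 each of wild-type (WT), heterozygous (Wfs1HZ) and homozygous (Wfs1KO) animals of the Wfs1tm1Koks strain, to learn which transcripts differ when WFS1, a membrane protein of the endoplasmic reticulum that is lost in Wolfram syndrome, is deficient. All animals, controls included, were F2 hybrids of C57BL/6 with another inbred strain, aged 5-6 months. In the targeted allele most of exon 8 of Wfs1 is replaced by a LacZ cassette, in every tissue, and a truncated fusion protein can still be made, so the homozygote is not a complete null. Islets were freed with collagenase and picked by hand into medium with high glucose, and each animal gave 1 library. The study describes an overnight incubation before its insulin secretion assay, and does not state it for the islets used for RNA.

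Insulin and glucagon leave islet cells by regulated exocytosis. A vesicle SNARE on the granule pairs with target SNAREs on the plasma membrane and draws the membranes together, Sec1/Munc18 proteins and priming factors prepare the complex, and synaptotagmins start fusion when calcium enters. Rab GTPases and their effectors bring granules to the membrane, while Nsf and its adaptor Napa take the used SNARE complexes apart.

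The libraries differed in depth and in how much RNA of other pancreatic cells they held. Depth, estimated from the smallest steps between values of short RNA genes, ran from 2190000 to 9564000 reads. This is the smallest read number that turns nearly all of those values into whole reads, and is taken as the number by which the RPKM were divided. Multiples of it would fit those values too. It is not the number of reads sequenced, which the study gives as larger. Wfs1 itself had 28.6 ± 3.83 RPKM in WT, 11.1 ± 5.59 in Wfs1HZ and 4.4 ± 1.83 in Wfs1KO islets (SD, n = 4), and no animal of either mutant group reached the WT range (exact permutation p = 0.029 for each, the smallest that 4 against 4 animals allow). Of 10 beta cell markers 9 or 10 were above 0 in each animal, their sum ran from 12565 to 179874 RPKM, and Mafa, a defining beta cell factor, was listed at 0 in 10 of 12 animals. The 6 alpha cell markers were all above 0, with a sum of 50977 to 221068 RPKM. All 12 acinar markers, genes of the digestive enzyme cells around the islets, were above 0 in every animal. Their sum was 317938 RPKM in Wfs1HZ animal 4 and 290837 in Wfs1KO animal 3, against 9519 in Wfs1HZ animal 2, 9400 in Wfs1KO animal 4 and 55854 to 124981 in the others. In such mixed tissue, fewer cells of a type and less RNA per cell cannot be told apart.

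In WT islets the 39 genes spanned 158 to 0.87 RPKM. Snap25, the target SNARE of neurons and endocrine cells, stood first at 158 ± 9.39 RPKM (SD, n = 4), above 99.3% of all transcripts, and its WT animals did not overlap with those of the next gene. Vamp8, a vesicle SNARE, followed with 93.1 ± 17.5, then the granule and synaptic-like vesicle protein Syp with 86.2 ± 15.5, Syt4 with 83.3 ± 33.4 and Syt13 with 70.6 ± 14.6 RPKM. Apart from Snap25 the order was not firm: of the 38 pairs of neighbours only Snap25 over Vamp8 and Syt1 over Cplx1 had WT ranges that did not overlap. The lowest members were Syt1 at 2.49 ± 0.73, Cplx1 at 1.01 ± 0.73 and Doc2b at 0.87 ± 0.22 RPKM. Syt1, the fast calcium sensor of neurons, was thus far below Syt7 at 46.8 ± 14.2 and Syt5 at 23.4 ± 5.18 RPKM.

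**Figure D1:**
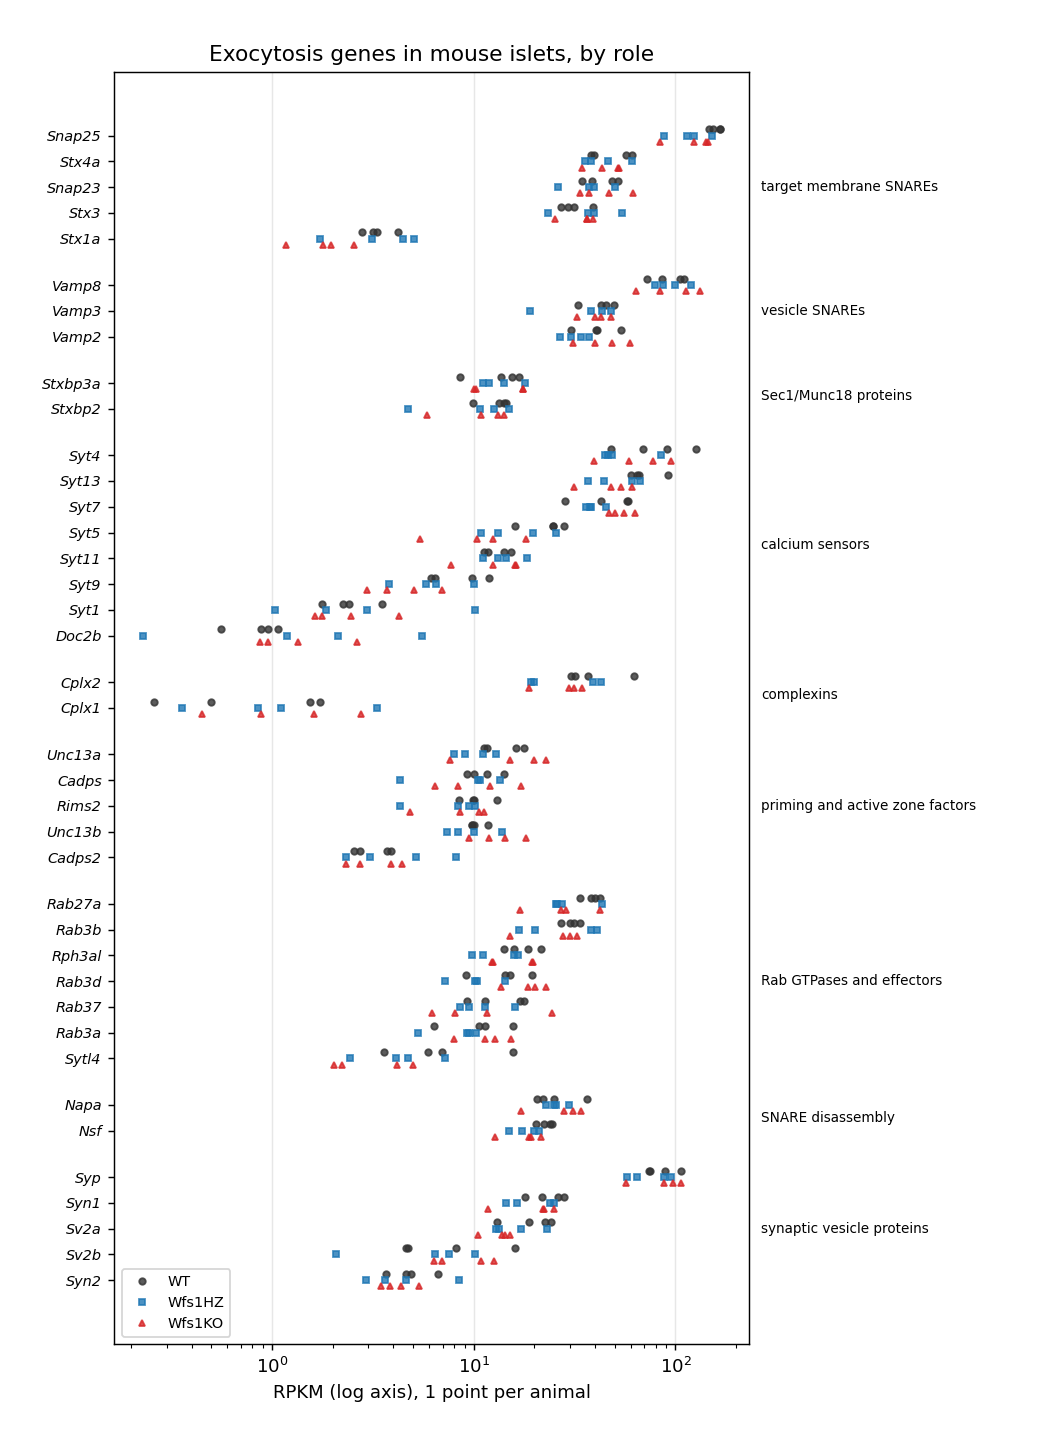
RPKM of the 39 exocytosis genes in each animal, on a log axis, ordered by role and, within a role, by WT mean; each point is 1 animal (circles WT, squares Wfs1HZ, triangles Wfs1KO). Snap25 lies highest, and for most genes the 3 genotypes overlap; the Wfs1KO points of Stx1a (1.17 to 2.56 RPKM) lie below all WT points (2.8 to 4.19 RPKM).

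Each pair of genotypes was compared by limma, a linear model that shares its variance estimate across genes, on log2(RPKM + 0.1) and over 21701 transcripts averaging 0.1 RPKM or more. All 39 genes passed that filter. A fold change on this scale understates the change of genes with low values. Of the 39, in Wfs1KO against WT islets, 15 were higher and 24 lower (12 and 27 with median-of-ratios scaling, 11 and 28 with quantile normalization), with a median log2 fold change of -0.09 against 0.07 over all transcripts tested. At an adjusted p (Benjamini-Hochberg) under 0.05 there were 0 of 39, against 3 transcripts or 0.0138% of all tested, and the lowest adjusted p of a member was 0.835 (limma). At an unadjusted p under 0.05 there were 6 members, all lower in Wfs1KO: Syt5, Stx1a, Syt9, Sytl4, Syt13 and Sv2a. Over all transcripts 5.64% had such a p, 1.74% with a lower and 3.91% with a higher value in Wfs1KO, and all calls split 69.2% higher as deposited, 56.6% when scaled by median of ratios and 47.2% when quantile normalized. In Stx1a and Snap25 the Wfs1KO animals all lay below the WT animals, against 0.991% of all transcripts, and 2.74% separated in either direction.

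In Wfs1HZ against WT islets 9 members were higher and 30 lower, with a median log2 fold change of -0.27 against 0.04 over all transcripts, and 0 had an unadjusted or adjusted p under 0.05 (limma), against 2.35% at the unadjusted threshold over all transcripts. No member separated these genotypes completely, against 1.66% of transcripts. In Wfs1KO against Wfs1HZ islets 20 were higher and 19 lower (15 and 24 with either scaling), with a median of 0.01 against 0.04, and 0 passed the adjusted threshold (limma, 0 of all transcripts). Rab3d and Syt7 had an unadjusted p under 0.05, both higher in Wfs1KO, against 2.45% of all transcripts and 1.7% in that direction. These comparisons share animals: each genotype enters 2 of them.

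**Figure D2:**
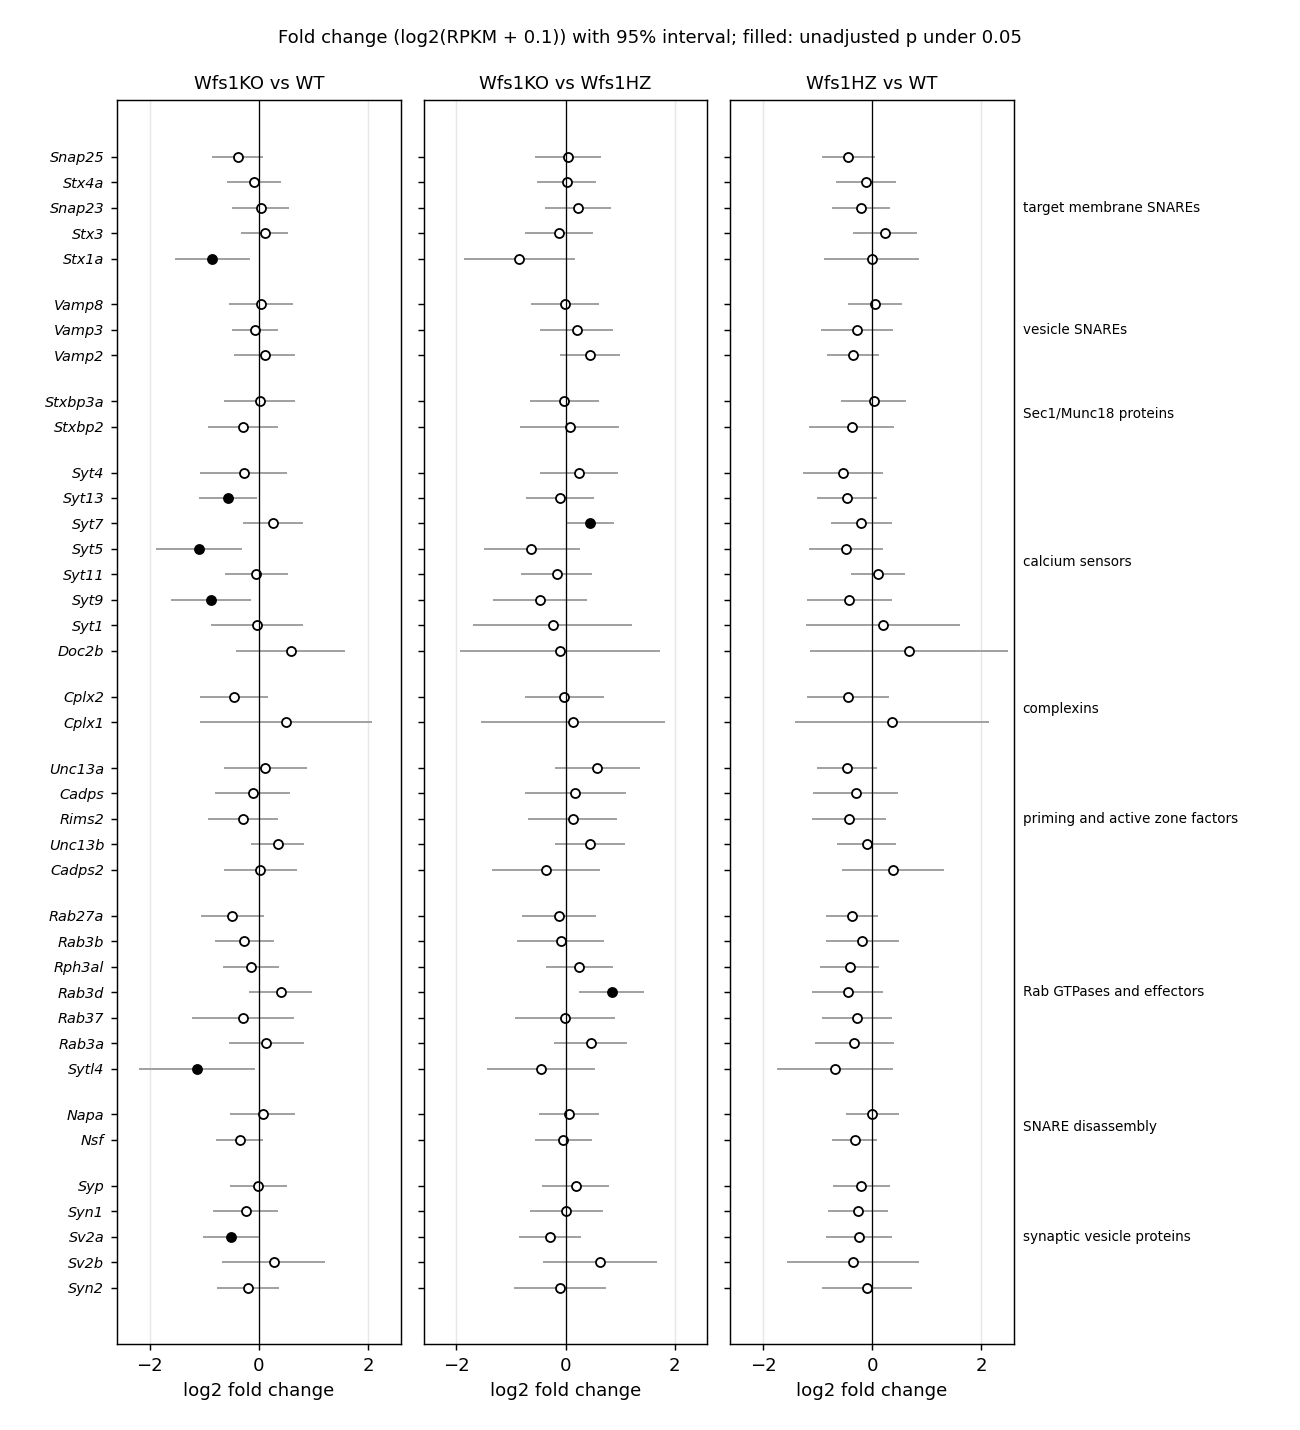
Log2 fold change of each exocytosis gene, on log2(RPKM + 0.1), in the 3 pairs of genotypes; points are limma estimates, lines their 95% intervals, and filled points have an unadjusted p under 0.05. The 6 filled points of Wfs1KO vs WT lie left of 0 and run from -1.14 (Sytl4) to -0.52 (Sv2a), the 2 of Wfs1KO vs Wfs1HZ lie right of 0 (Rab3d 0.84, Syt7 0.45), and there are 0 for Wfs1HZ vs WT.

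Of the 5 target membrane SNAREs, 2 had higher and 3 lower values in Wfs1KO against WT, and 1 higher and 4 lower after either scaling. Stx1a, syntaxin 1A, which pairs with Snap25 at sites of insulin release (chromosome 5, 135023482 to 135051100, mm10), had 3.18, 4.19, 2.80 and 3.31 RPKM in the WT animals and 4.44, 5.03, 3.14 and 1.72 in Wfs1HZ. In the Wfs1KO animals it had 2.56, 1.95, 1.79 and 1.17 RPKM. The highest Wfs1KO animal was under the lowest WT animal, while Wfs1HZ overlapped with both. The log2 fold change of Stx1a in Wfs1KO against WT was -0.85 (SE 0.31, limma unadjusted p = 0.0209, adjusted p = 0.835), or 0.55 of the WT level, and the exact two-sided permutation p was 0.029. Without Wfs1KO animal 3 it was -0.85 (unadjusted p = 0.0355), and without WT animal 2 it was -0.75 (unadjusted p = 0.0589). Its reads were few, from about 8.33 in the shallowest Wfs1KO animal to 81 in WT. Against Wfs1HZ the Stx1a fold change was -0.85 (SE 0.46, limma unadjusted p = 0.0935, adjusted p = 1), and between Wfs1HZ and WT it was 0.00 (SE 0.39, 95% interval -0.87 to 0.86).

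Snap25 (chromosome 2, 136713453 to 136782428) had 152.82, 165.57, 147.29 and 166.11 RPKM in WT, 151.72, 113.48, 123.88 and 87.57 in Wfs1HZ, and 122.81, 141.53, 84.17 and 144.65 in Wfs1KO animals. WT animals were close together and all above the Wfs1KO animals, and only Wfs1HZ animal 1 reached the WT range. The fold change of Snap25 was -0.39 in Wfs1KO (SE 0.21, limma unadjusted p = 0.0945, adjusted p = 0.879; exact permutation p = 0.029) and -0.43 in Wfs1HZ (SE 0.22, limma unadjusted p = 0.0774, adjusted p = 1; exact permutation p = 0.057), each against WT. Without Wfs1KO animal 3, whose Snap25 was lowest, the Wfs1KO value was -0.21 (unadjusted p = 0.197).

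The other target SNAREs did not separate the genotypes. Snap23, the widely expressed relative of Snap25, had 34.32, 38.60, 48.50 and 51.74 RPKM in WT, 49.97, 37.29, 39.41 and 26.02 in Wfs1HZ and 46.70, 61.83, 37.30 and 33.56 in Wfs1KO animals. Stx4a, syntaxin 4, which also serves granule fusion, had 38.14, 56.88, 60.80 and 39.42 in WT, 60.62, 35.50, 46.39 and 38.08 in Wfs1HZ and 52.53, 51.65, 34.39 and 43.33 RPKM in Wfs1KO animals. Both genes overlapped widely among genotypes. In Wfs1KO against WT the log2 fold change was 0.03 for Snap23 (SE 0.23), -0.09 for Stx4a (SE 0.22) and 0.11 for Stx3 (SE 0.19), the last a syntaxin found on granules as well as on the plasma membrane.

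Vesicle SNAREs showed no difference past the unadjusted threshold in any pair. Vamp2, the granule SNARE of calcium-triggered insulin release, had 53.66, 40.97, 30.22 and 40.44 RPKM in WT, 30.21, 37.20, 34.18 and 26.77 in Wfs1HZ and 59.71, 48.41, 30.91 and 39.99 in Wfs1KO animals. Vamp3, its widely expressed relative, had 49.72, 45.49, 42.84 and 33.02 RPKM in WT, 38.26, 42.98, 48.12 and 18.98 in Wfs1HZ and 39.90, 42.75, 32.32 and 47.91 in Wfs1KO animals. Vamp8, known also from zymogen granules of acinar cells, had 104.84, 110.00, 72.04 and 85.61 RPKM in WT, 119.33, 86.43, 99.58 and 78.86 in Wfs1HZ and 112.92, 63.35, 83.96 and 132.17 in Wfs1KO animals. The highest and the lowest Vamp8 value both came from Wfs1KO animals, animal 4 (acinar marker sum 9400 RPKM) and animal 2 (72232 RPKM). The part of acinar RNA in the Vamp8 values was not tested. Against WT the Wfs1KO fold change was 0.10 for Vamp2 (95% interval -0.45 to 0.66), -0.07 for Vamp3 (-0.49 to 0.35) and 0.04 for Vamp8 (-0.54 to 0.62). Vamp2 was 0.45 higher in Wfs1KO than in Wfs1HZ on the log2 scale (SE 0.25, limma unadjusted p = 0.098, adjusted p = 1).

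The Sec1/Munc18 proteins clasp syntaxins and are needed for SNARE assembly. Stxbp2 ran from 9.88 to 14.44 RPKM in WT, from 4.71 to 14.92 in Wfs1HZ and from 5.86 to 14.09 in Wfs1KO animals. Stxbp3a, the partner of syntaxin 4, ran from 8.54 to 16.79, 11.08 to 17.96 and 9.99 to 17.54 RPKM. Their log2 fold changes in Wfs1KO against WT were -0.29 (SE 0.29) and 0.01 (SE 0.29).

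Among the 8 calcium sensor genes, 7 synaptotagmins and Doc2b, 6 had lower and 2 higher values in Wfs1KO against WT (also after either scaling, and 4 of each without Wfs1KO animal 3). Of the lower ones 3 had an unadjusted p under 0.05 (limma), against 1.74% of all transcripts, and 0 passed the adjusted threshold. Syt5 (chromosome 7, 4539765 to 4547541), a vesicle synaptotagmin that binds calcium, had 24.70, 24.60, 16.00 and 28.17 RPKM in WT, 19.63, 25.64, 13.14 and 10.87 in Wfs1HZ and 10.32, 12.39, 5.43 and 18.13 in Wfs1KO animals. All Wfs1KO animals but animal 4 were below the lowest WT animal. The log2 fold change of Syt5 in Wfs1KO against WT was -1.10 (SE 0.35, limma unadjusted p = 0.0115, adjusted p = 0.835; exact permutation p = 0.057), or 0.47 of the WT level. An unadjusted p under 0.05 was found for Syt5 in 21 of 21 alternative analyses, with fold changes from -1.36 to -0.78 and adjusted p from 0.233 to 1. With the log2 acinar marker sum as a covariate, an alternative chosen after seeing the data, it was -1.24, and without Wfs1KO animal 3 it was -0.79. Wfs1HZ lay between the other genotypes, at -0.48 against WT (SE 0.30), with Wfs1KO at -0.62 against Wfs1HZ (SE 0.40), and neither difference passed the unadjusted threshold.

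Syt9 (chromosome 7, 107370728 to 107548656), a calcium sensor of insulin granules, had 6.46, 11.95, 9.81 and 6.14 RPKM in WT, 6.52, 10.07, 5.80 and 3.78 in Wfs1HZ and 3.72, 5.07, 2.97 and 6.95 in Wfs1KO animals. As for Syt5, Wfs1KO animal 4 alone reached the WT range. The Syt9 fold change in Wfs1KO was -0.88 (SE 0.33, limma unadjusted p = 0.0241, adjusted p = 0.835; exact permutation p = 0.086), and it lost the unadjusted threshold without WT animal 2 (-0.70), WT animal 3 (-0.80), Wfs1KO animal 1 (-0.80) or Wfs1KO animal 3 (-0.69). Syt13 (chromosome 2, 92915098 to 92956058), a synaptotagmin regarded as independent of calcium, had 92.23, 65.95, 64.24 and 60.02 RPKM in WT, 60.63, 44.33, 66.77 and 36.72 in Wfs1HZ and 53.48, 47.82, 31.57 and 60.57 in Wfs1KO animals. Only Wfs1KO animal 4 overlapped with WT, by 60.57 against 60.02 RPKM. For Syt13 the Wfs1KO fold change was -0.56 (SE 0.24, limma unadjusted p = 0.0396, adjusted p = 0.87; exact permutation p = 0.057), -0.37 without Wfs1KO animal 3 (unadjusted p = 0.0849) and -0.43 without WT animal 1 (unadjusted p = 0.108). The unadjusted threshold was missed for Syt13 also without WT animal 2 (-0.59), WT animal 3 (-0.60) or Wfs1KO animal 2 (-0.57).

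Slc30a8, the zinc transporter of insulin granules, had 76.33, 69.06, 70 and 37.19 RPKM in WT, 48.34, 47.3, 133.95 and 33.78 in Wfs1HZ and 13.33, 17.31, 16.44 and 53.89 in Wfs1KO animals. It was picked from the 10 beta cell markers after its values were seen. Apart from it and the insulin genes, these markers are not given by animal here. In Slc30a8, as in Syt5, Syt9 and Syt13, Wfs1KO animal 4 alone reached the WT range. For the insulin genes Wfs1KO animal 4 was instead the lowest of its group and below all WT animals, and for Ins2 so was Wfs1KO animal 3. Ins1 had 48928, 42367, 18520 and 9816 RPKM in the Wfs1KO animals, against 13075 to 91587 in WT. Ins2 had 33525, 24433, 14220 and 9199 RPKM in Wfs1KO, against 15292 to 76687 in WT. The sum of the 10 beta cell markers ran from 32086 to 179874 RPKM in WT, 12565 to 137740 in Wfs1HZ and 22394 to 91427 in Wfs1KO. Stromal markers, all 6 above 0 in each animal, summed to 18.56 to 56.92 RPKM in WT, 12.31 to 356.58 in Wfs1HZ and 56.63 to 132.43 in Wfs1KO, and endothelial markers to 23.22 to 58.67, 20.59 to 106.42 and 57.83 to 69.93. The part of these markers in the values of the exocytosis genes was not tested.

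Syt7, the high-affinity calcium sensor of islet granules (chromosome 19, 10389090 to 10453180), had 57.64, 42.83, 28.39 and 58.42 RPKM in WT, 37.67, 38.15, 45.29 and 36.12 in Wfs1HZ and 55.85, 62.72, 50.29 and 46.98 in Wfs1KO animals. All Wfs1KO animals were above all Wfs1HZ animals, while the WT animals spread from below to within the Wfs1KO range. Over all transcripts 1.43% separated these genotypes, 0.926% with Wfs1KO higher. The Syt7 fold change was 0.45 in Wfs1KO against Wfs1HZ (SE 0.20, limma unadjusted p = 0.0438, adjusted p = 1; exact permutation p = 0.029) and 0.25 against WT (SE 0.24). It passed the unadjusted threshold in 11 of 23 alternatives, and not after median-of-ratios scaling (0.38) or quantile normalization (0.28). Leaving out Wfs1HZ animal 1, 2 or 4 or Wfs1KO animal 1 or 2 gave Syt7 values of 0.43, 0.44, 0.41, 0.43 and 0.38 that missed it too.

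Syt4, a synaptotagmin abundant in mature beta cells, had 125.96, 47.84, 68.80 and 90.42 RPKM in WT, 46.08, 48.39, 85.11 and 44.60 in Wfs1HZ and 94.60, 77.70, 39.54 and 58.90 in Wfs1KO animals. Its animals varied within each genotype by more than the genotypes differed, with fold changes of -0.28 (SE 0.35) in Wfs1KO and -0.54 (SE 0.33) in Wfs1HZ against WT. Syt11, another member without calcium-triggered fusion activity, ran from 11.24 to 15.36 RPKM in WT, 11.11 to 18.39 in Wfs1HZ and 7.7 to 16.25 in Wfs1KO. Wfs1HZ animal 2 had 10.13 RPKM of Syt1 and 5.54 of Doc2b, a soluble calcium sensor, against highest values of 4.25 and 2.63 in any other animal. The same library had the highest sums of stromal markers, 356.58 RPKM against 12.31 to 132.43 in the others, and of nerve and Schwann cell markers, 46.6 RPKM. It was also the shallowest, at 2190000 reads, and its median over all transcripts was 0.74 above the WT means on the log2 scale. The part of these traits in the Syt1 and Doc2b values was not tested.

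**Figure D3:**
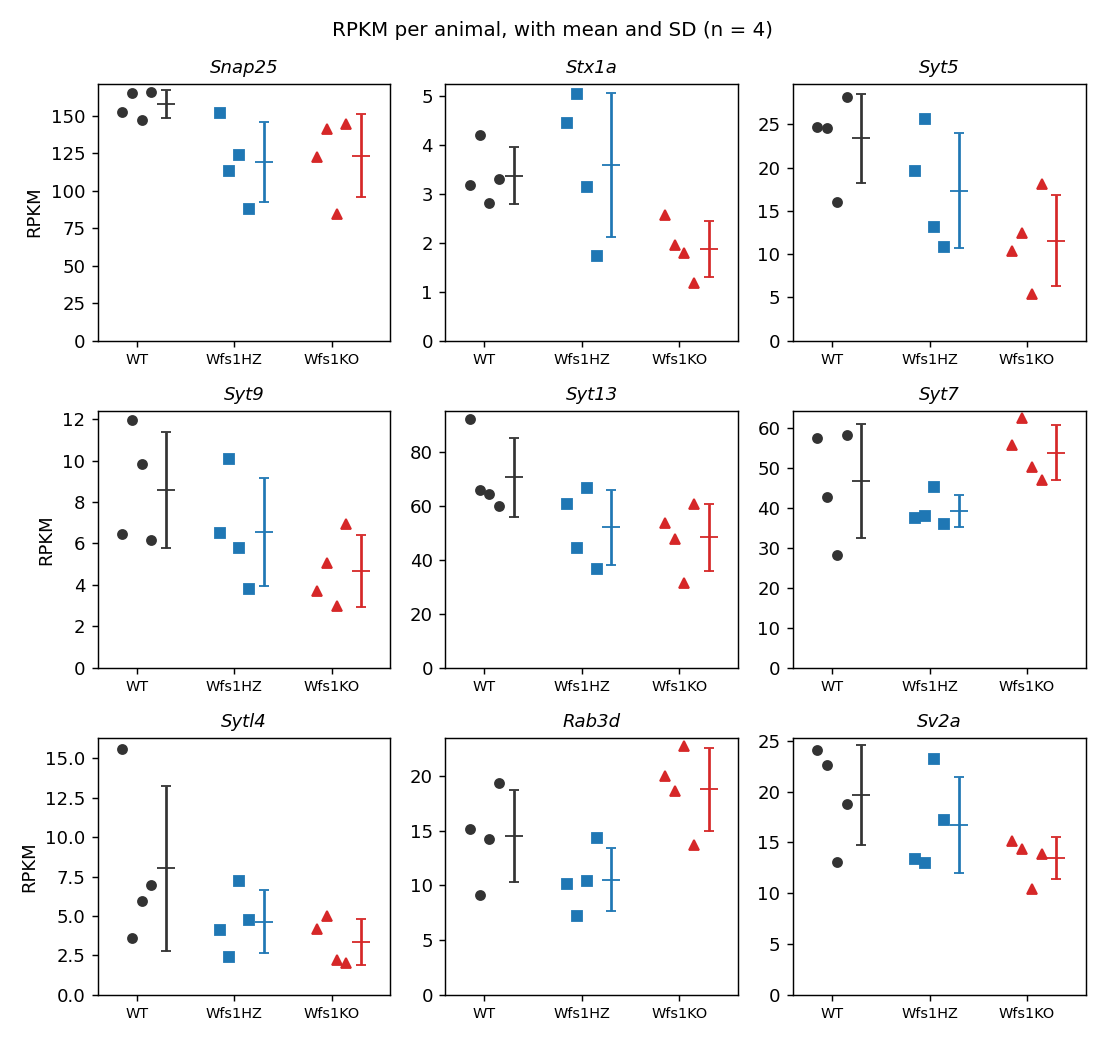
RPKM of 9 exocytosis genes in each animal on linear axes from 0; points are animals, and the horizontal ticks with bars are mean and SD (n = 4). Stx1a and Snap25 have all Wfs1KO animals below all WT animals, Syt7 has all Wfs1KO animals (46.98 to 62.72 RPKM) above all Wfs1HZ animals (36.12 to 45.29 RPKM), and the other genes overlap in every pair.

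Complexins bind the assembled SNARE bundle and hold it ready. Cplx2, the main form here, ran from 30.34 to 62.06 RPKM in WT, 19.24 to 42.8 in Wfs1HZ and 18.79 to 34.4 in Wfs1KO, with a fold change of -0.46 in Wfs1KO against WT (SE 0.28, limma unadjusted p = 0.127, adjusted p = 0.879). Cplx1 had 0.26 to 1.72 RPKM in WT, 0.36 to 3.3 in Wfs1HZ and 0.45 to 2.75 in Wfs1KO, which is about 3.95 to 33.7 reads. The 95% interval of the Cplx1 fold change in Wfs1KO against WT ran from -1.07 to 2.08.

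Priming and active zone factors make docked granules fusion-ready. The Munc13 proteins Unc13a and Unc13b had fold changes of 0.12 (SE 0.34) and 0.34 (SE 0.22) in Wfs1KO against WT, and 0.58 (SE 0.35) and 0.44 (SE 0.29) against Wfs1HZ. Unc13a had 19.92, 22.86, 15.13 and 7.64 RPKM in the Wfs1KO animals, against 11.23 to 17.83 in WT and 7.95 to 12.87 in Wfs1HZ. Both the highest and the lowest Unc13a value thus came from Wfs1KO animals. Without Wfs1KO animal 3 Unc13b joined the members with an unadjusted p under 0.05 against WT, as a higher one. Cadps and Cadps2, the dense core granule factors CAPS1 and CAPS2, had fold changes of -0.12 (SE 0.30) and 0.03 (SE 0.29), and the active zone scaffold Rims2 of -0.28 (SE 0.28), all against WT.

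The 7 Rab GTPases and effectors were split as 2 higher and 5 lower in Wfs1KO against WT, and all 7 were lower in Wfs1HZ against WT, also after either scaling, though none passed the unadjusted threshold there and 1 was higher without Wfs1HZ animal 4. Sytl4, granuphilin, which docks insulin granules by binding Rab27a and syntaxin (chromosome X, 133936385 to 133981812), had 15.60, 3.61, 5.96 and 6.97 RPKM in WT, 4.13, 2.43, 7.23 and 4.74 in Wfs1HZ and 4.15, 5.0, 2.22 and 2.03 in Wfs1KO animals. WT animal 1 stood far above the others, and WT animal 2 lay within the Wfs1KO range. The Sytl4 fold change in Wfs1KO against WT was -1.14 (SE 0.47, limma unadjusted p = 0.0379, adjusted p = 0.855; exact permutation p = 0.086), and without WT animal 1 it was -0.75 (unadjusted p = 0.105). The unadjusted threshold was also missed without WT animal 3, WT animal 4, Wfs1KO animal 3 or Wfs1KO animal 4, with fold changes of Sytl4 of -1.21, -1.14, -0.98 and -0.94.

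Rab3d, a Rab GTPase of secretory granules that is well known from zymogen granules (chromosome 9, 21907491 to 21918192), had 15.15, 9.12, 14.25 and 19.36 RPKM in WT, 10.16, 7.24, 10.39 and 14.35 in Wfs1HZ and 20.03, 18.60, 22.69 and 13.71 in Wfs1KO animals. All Wfs1KO animals but animal 4 were above every Wfs1HZ animal, and animal 4 was just below the highest of them. In both mutant groups the animal with the most acinar RNA had the highest Rab3d (Wfs1HZ animal 4, Wfs1KO animal 3) and the animal with the least had the lowest. In WT the animal with the least, animal 2, had the lowest Rab3d, but the highest was in animal 4 and not in animal 3, which had the most. The fold change of Rab3d in Wfs1KO against Wfs1HZ was 0.84 (SE 0.27, limma unadjusted p = 0.0106, adjusted p = 1; exact permutation p = 0.057). It was 0.91 without the animal richest in acinar RNA of each group and 0.82 without the poorest of each. With the acinar sum as a covariate it was 0.88. These alternatives were chosen after seeing the data, and the part of acinar RNA in the Rab3d values was not tested. After median-of-ratios scaling the Rab3d fold change was 0.77 (limma unadjusted p = 0.102), and after quantile normalization 0.78 (limma unadjusted p = 0.0879). Against WT the Rab3d value was 0.40 in Wfs1KO (SE 0.26) and -0.45 in Wfs1HZ (SE 0.29).

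Rab27a, the GTPase to which Sytl4 binds, ran from 33.81 to 42.14 RPKM in WT, 25.55 to 43.37 in Wfs1HZ and 16.91 to 42.31 in Wfs1KO, with a Wfs1KO fold change of -0.49 against WT (SE 0.26, limma unadjusted p = 0.0892, adjusted p = 0.879). Rab3a and Rab3b, the synaptic Rab3 forms, had 0.14 (SE 0.30) and -0.27 (SE 0.24). Rab37, found on insulin granules, had -0.29 (SE 0.41) and ranged from 6.2 to 24.54 RPKM within Wfs1KO alone. Rph3al, Noc2, an effector of Rab3 and Rab27, had -0.15 (SE 0.23).

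SNARE disassembly was represented by its ATPase and adaptor. Nsf had 20.26 to 24.41 RPKM in WT, 14.89 to 21.11 in Wfs1HZ and 12.7 to 21.55 in Wfs1KO animals, with fold changes against WT of -0.31 (SE 0.18) and -0.35 (SE 0.19) and exact permutation p = 0.057 for each. Napa, alpha-SNAP, had 0.01 (SE 0.22) and 0.07 (SE 0.26).

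Of the 5 synaptic vesicle proteins, 4 had lower and 1 a higher value in Wfs1KO against WT, also after either scaling, and 3 and 2 without Wfs1KO animal 3. Sv2a, a glycoprotein of synaptic vesicles and endocrine granules (chromosome 3, 96181151 to 96195521), had 24.12, 22.60, 13.06 and 18.76 RPKM in WT, 13.40, 12.94, 23.18 and 17.23 in Wfs1HZ and 15.11, 14.36, 10.45 and 13.87 in Wfs1KO animals. The Wfs1KO animals were below all WT animals but WT animal 3. Its fold change was -0.52 (SE 0.23, limma unadjusted p = 0.0476, adjusted p = 0.879; exact permutation p = 0.114), and 9 of 21 alternatives gave an unadjusted p under 0.05, which was missed when any 1 animal other than WT animal 3 was left out. Syp, synaptophysin, had 89.06, 74.88, 74.00 and 106.96 RPKM in WT, 57.53, 95.15, 87.65 and 64.25 in Wfs1HZ and 88.18, 96.77, 56.80 and 106.12 in Wfs1KO animals. Its genotypes overlapped widely, with a Wfs1KO fold change of -0.01 (95% interval -0.53 to 0.51). Syn1 and Syn2, the synapsins that tether vesicles, had -0.25 (SE 0.26) and -0.20 (SE 0.25), and Sv2b had 0.27 (SE 0.42).

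The level of these genes also differed between animals of a genotype. The median log2 difference of the 39 genes from their WT means was -0.58 in Wfs1HZ animal 4, where 37 were below the WT mean, and -0.58 in Wfs1KO animal 3, where 34 were below. In the other 10 animals the median lay between -0.18 and 0.12. Wfs1KO animal 3 held the lowest value of 16 genes and Wfs1HZ animal 4 that of 10. These are the libraries with the most acinar RNA, whose part in the result was not tested. The median over all transcripts, measured the same way, was -0.61 in Wfs1HZ animal 4 and -0.24 in Wfs1KO animal 3. It was 0.74 in Wfs1HZ animal 2, where the 39 genes had -0.11, and 0.3 in Wfs1KO animal 4, where they had -0.02. The remaining animals had -0.21 to 0.17 over all transcripts. Without Wfs1KO animal 3 the median fold change of the 39 genes in Wfs1KO against WT was 0.04, with 20 higher and 19 lower, and without Wfs1HZ animal 4 that of Wfs1HZ against WT was -0.12, with 15 higher and 24 lower. With the acinar sum as a covariate, chosen after seeing the data, the medians were -0.14 in Wfs1KO against WT, with 13 higher and 26 lower, and -0.28 in Wfs1HZ against WT, with 7 higher and 32 lower.

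**Figure D4:**
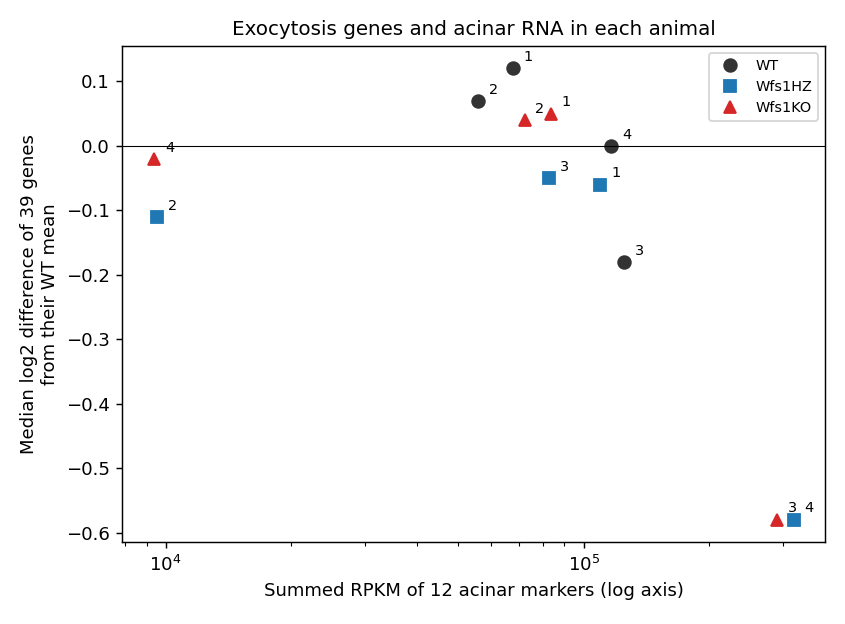
Median log2 difference of the 39 exocytosis genes from their WT means (vertical axis) against the summed RPKM of 12 acinar markers (horizontal log axis); each point is an animal, numbered within its genotype. Wfs1HZ animal 4 and Wfs1KO animal 3 lie apart at -0.58 and the largest acinar sums, while the 10 other animals lie between -0.18 and 0.12.

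Of 95 further genes of vesicle fusion listed beside the 39, 92 were tested: other exocytosis SNAREs, SNAREs of other membranes, other synaptotagmins, other docking, priming and Rab factors, and the exocyst with other vesicle proteins. In Wfs1KO against WT 3 were higher and 4 lower at an unadjusted p under 0.05, in Wfs1KO against Wfs1HZ 2 higher and 1 lower, and in Wfs1HZ against WT 0 higher and 1 lower. Over all transcripts the higher and lower shares were 3.91% and 1.74%, 1.7% and 0.756%, and 1.09% and 1.27% in these pairs. The adjusted threshold was passed by 0 (limma).

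Stx11, a SNARE of immune and other cells, was higher in Wfs1KO than in WT by 1.05 on the log2 scale (SE 0.30, limma unadjusted p = 0.00701, adjusted p = 0.835), at 2.77 to 6.06 against 1.68 to 2.64 RPKM. Sytl1, a Rab27 effector related to Sytl4, was higher by 0.90 (SE 0.34, limma unadjusted p = 0.027, adjusted p = 0.84), at 2.6 to 4.73 against 1.05 to 2.49 RPKM. Exoc1, a subunit of the exocyst tethering complex, was lower at -0.44 (SE 0.17, limma unadjusted p = 0.0261, adjusted p = 0.84), at 9.15 to 12.02 against 12.38 to 15.69 RPKM. Bet1, a SNARE of transport from the endoplasmic reticulum to the Golgi, was higher in Wfs1KO than in Wfs1HZ by 0.85 (SE 0.25, limma unadjusted p = 0.00618, adjusted p = 1), and Exoc6b, another exocyst subunit, was lower in Wfs1HZ than in WT at -0.50 (SE 0.18, limma unadjusted p = 0.021, adjusted p = 1). These 5 are named because they passed the unadjusted threshold and separated the genotypes without overlap, so their separation is no further result. Separation in either direction was seen in 2.74% of all transcripts for Wfs1KO against WT. It was seen in 1.43% for Wfs1KO against Wfs1HZ and in 1.66% for Wfs1HZ against WT.

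RefSeq promoter windows (GRCm38.p6) were matched for 30 of the 40 listed genes, with 37 windows. Of the 6 genes with an unadjusted p under 0.05 in Wfs1KO against WT, 4 had a window in the table used, and Stx1a and Sytl4 are shown, as those of the 4 whose 250 bases before the start lie wholly outside the annotated transcript. Capitals mark GGGCGG (GC box), CANNTG (E box) and TGACG (the core of a cAMP response element), searched on both strands.
Stx1a, chr5:135023232-135023481, plus strand: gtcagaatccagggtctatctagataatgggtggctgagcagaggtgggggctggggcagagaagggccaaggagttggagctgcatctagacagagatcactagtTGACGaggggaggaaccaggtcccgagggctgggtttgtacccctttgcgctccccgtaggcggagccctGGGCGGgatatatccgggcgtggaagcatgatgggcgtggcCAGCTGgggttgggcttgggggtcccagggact
Sytl4, chrX:133981813-133982062, minus strand: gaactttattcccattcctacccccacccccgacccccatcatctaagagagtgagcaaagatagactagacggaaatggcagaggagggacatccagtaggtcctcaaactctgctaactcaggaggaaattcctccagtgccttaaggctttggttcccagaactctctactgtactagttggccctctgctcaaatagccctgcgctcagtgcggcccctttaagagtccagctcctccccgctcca
The Stx1a window held 1 of each motif and the Sytl4 window 0. Of the 37 windows 20 held a GC box, 25 an E box and 11 TGACG, against 32.7%, 66.2% and 17.8% of 32851 windows of the same length. A match describes these letters and is not a binding site, and no match says nothing of a factor.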

How the data were processed

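The authors prepared cDNA from total islet RNA with the Ovation RNA-Seq System V2, sequenced fragment libraries from both ends on a SOLiD 5500xl, mapped reads to mm10 with LifeScope and tested counts with edgeR. The counter, the annotation and the tool that computed RPKM are not given in the sources used here. The authors deposited RPKM, 1 column per animal. RPKM are not counts, so limma (version 3.58.1, R 4.3.3; lmFit, eBayes with a variance trend) was run on log2(RPKM + 0.1) for each pair of genotypes, with Benjamini-Hochberg adjustment over 21701 transcripts, and tested on simulated data. Single genes were also compared by exact two-sided permutation tests of mean log2 values. Genotype and number came from the sample labels. Other steps used Python 3.11.15 with pandas 2.3.3 and numpy 2.4.6, scipy 1.17.1 for permutation tests and, for figures, matplotlib 3.10.9. The annotation was GENCODE M21, on the same build.

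The members and all gene lists were chosen with earlier results of these data known. Values per animal are given for the 10 genes highest in WT, those with an unadjusted p under 0.05 and those whose animals did not overlap in any pair; from the further lists, at most 4 genes per pair with an unadjusted p under 0.05 and no overlap, of which 1 is not reported here. Other genes were named after their values were seen. Reads were estimated as RPKM times transcript length times depth, where 96.6% to 100.0% of short-gene values in each library were whole reads (tolerance 0.1), and reflect counting error alone. In the shallowest library 3 reads on a transcript of 2 kb are 0.685 RPKM. Each replicate is a separate animal. Alternatives were a pseudocount of 1 or 0.01, a filter at 0 or 1 RPKM, 2 scalings, 2 variance models, 1 fit over all 12 animals, weights per sample, a block for the replicate number, leaving out each animal, and 4 chosen after seeing the data.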

Additional observations from a re-analysis of the deposited data

Results flagged for a closer look

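Of 117 sets of 4 animals (each gene in each genotype), 3 held an animal whose gap to the next exceeded Dixon's 95% critical value, where chance gives about 1 in 20. Syt4 in Wfs1HZ animal 3 was 85.11 RPKM against 44.6 to 48.39 in the other 3. Rab27a in Wfs1HZ animal 2 was 43.37 RPKM against 25.55 to 27.39. Unc13b in WT animal 4 was 11.72 RPKM against 9.78 to 10.03.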

How the results depend on the processing

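The count of exocytosis genes with an adjusted p under 0.05 was 0 in each pair under all alternatives. The counts at an unadjusted p under 0.05 are given here with the share of all transcripts past it in the same setting. For Wfs1KO against WT the 6 (5.64%) became 10 after median-of-ratios scaling (7.24%) and 10 with the acinar covariate (8.64%, chosen after seeing the data), and 2 to 5 with an animal left out (4.23% to 8.62%): 3 without WT animal 1, WT animal 3 or Wfs1KO animal 3 and 2 without WT animal 2. For Wfs1KO against Wfs1HZ the 2 (2.45%) became 1, Rab3d, with a minimum mean of 1 RPKM, no variance trend, a robust variance or all 12 animals in a single fit (2.3% to 3.22%), and 1, Syt5, after quantile normalization (4.27%), where Rab3d and Syt7 were both lost. They became 3 after median-of-ratios scaling (Stx1a, Syt5 and Syt9, 3.66%) and 5 with sample weights (Unc13a, Unc13b and Vamp2 joining, 10.3%). Chosen after seeing the data were 4 without Wfs1HZ animal 4 and Wfs1KO animal 3 (3.27%), 3 without Wfs1HZ animal 2 and Wfs1KO animal 4 (5.9%) and 4 with the acinar covariate (4.81%). With an animal left out they were 1 to 3 (1.57% to 6.03%): 1 without Wfs1HZ animal 1 or 2 or Wfs1KO animal 1 or 2. For Wfs1HZ against WT the 0 (2.35%) became 4 with sample weights (7.09%), 2 with the acinar (5.64%) and 1 with the Gcg to insulin covariate (3.76%, both chosen after seeing the data), and 0 to 2 with an animal left out (1.41% to 5.01%). The cause of these moves was not tested. The replicate block gave 6, 1 and 2 in these pairs (5.03%, 1.82% and 3.94%). Same-numbered animals correlated at -0.134 to 0.062, -0.174 to 0.085 and -0.054 to 0.228. Animals of different numbers correlated at -0.105 to 0.186, -0.171 to 0.231 and -0.199 to 0.132. In Wfs1HZ against WT the animals numbered 2 (0.228) and 4 (0.21) lay above all of different numbers. The correlations thus do not settle whether the numbers pair animals in that comparison. The median fold change of the 39 genes with an animal left out ran from -0.18 to 0.04, from -0.12 to 0.22 and from -0.37 to -0.12. Reads were fewest for Cplx1, Doc2b and Stx1a.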

Other observations

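The ratio of Syt5 to Syt7 RPKM within an animal, chosen after its values were seen and given with no test, was 0.429 to 0.574 in WT, 0.29 to 0.672 in Wfs1HZ and 0.108 to 0.386 in Wfs1KO animals. The ratio of Snap25 to Snap23 was 3.04 to 4.45 in WT, 3.04 to 3.37 in Wfs1HZ and 2.26 to 4.31 in Wfs1KO, where animal 4 was the highest. The ratio of Vamp2 to Vamp8 was 0.372 to 0.512 in WT, 0.253 to 0.43 in Wfs1HZ and 0.303 to 0.764 in Wfs1KO. For Syt9 to Syt7 it was 0.105 to 0.346 in WT, 0.105 to 0.264 in Wfs1HZ and 0.0591 to 0.148 in Wfs1KO. For Stx1a to Snap25 it was 0.019 to 0.0253, 0.0196 to 0.0443 and 0.00809 to 0.0213. Only Syt5 to Syt7 had WT and Wfs1KO ranges that did not overlap, and all these ratios were chosen after values were seen.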
